A study of Mus musculus with 79 samples.

Results

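Wt1, Bnc1, Upk3b, Msln and Lrrn4, 5 genes that are used as markers of mesothelium, were followed in mouse embryonic stem cells during exposure to retinoic acid. They were picked by name out of 19445 genes with reads in the time course of wild-type cells, 19403 in the deletion clones and 21023 in the cohesin experiment. The choice rests on measured values, since Upk3b and Bnc1 differed between the deletion clones E3 and H12 at 74 h. All values of E3 and H12 at 74 h are therefore given as a description, without a test. That difference between E3 and H12 did not involve the other times, the other cells or the wild-type clone's own course. All 5 members were still chosen with earlier results of these data known, so tests elsewhere are not independent of the choice.

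Mesothelium is the flat epithelial layer that covers the heart, lungs, gut and body wall cavities, and it arises from the coelomic epithelium of the lateral plate mesoderm. Retinoic acid signalling is active in that layer in the embryo, where the retinaldehyde dehydrogenase gene Aldh1a2 makes the ligand and Wt1 is one of the regulators. Wt1 encodes a zinc finger transcription factor needed for kidney, gonad and epicardium. Bnc1 encodes basonuclin 1, a zinc finger protein of mesothelium, germ cells and stratified epithelium. Upk3b encodes a membrane protein of the uroplakin family, Msln encodes the surface glycoprotein mesothelin, and Lrrn4 encodes a leucine-rich repeat membrane protein.

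Deletion clones E3 and H12 lack a transient enhancer in the Hoxb locus, and G4 is a wild-type clone obtained beside them. Each is 1 clone, so for a deletion clone against G4 a difference between clones cannot be told apart from a difference between deletion and wild type. E3 against H12 compares deletion clones with each other. Nuclear RNA of each clone was sequenced in 2 libraries at each of 0, 2, 4, 6, 24, 48 and 74 h of 1 uM retinoic acid (RA). Total RNA of wild-type E14 cells was sequenced at 0 h (2 libraries), 24 h (3 libraries) and 2, 4, 6, 48 and 72 h (4 libraries per time); the last time is 72 h in the sample titles and 74 h in the characteristics. SCC1-mAID cells (E14 with Tir1 at Rosa26 and mAID-eGFP on SCC1) lose the cohesin subunit SCC1 when auxin is added. Their nuclear RNA was sequenced in 3 libraries each after 500 uM auxin for 6 h with RA for the last 4 h, auxin for 6 h, RA for 4 h, and no treatment. Nothing in the labels says whether libraries of a group came from separate cultures, so p-values measure the spread between libraries.

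Depth was 2351105 to 21078996 reads per library in E14, 4753860 to 10448512 in the clones and 3126025 to 7497894 in SCC1-mAID. The E14 0 h group holds replicates 3 and 4 only. The later E14 replicates split in the summed level of 7 pluripotency genes, which at 72 h was 1236 and 1038 reads per 1000000 reads (CPM) in replicates 1 and 2, and 419 and 466 CPM in replicates 3 and 4. In the clones, deletion clone E3 replicate 1 at 48 h stood apart in 7 fibroblast and stroma genes, with a summed level of 2517 CPM against 572 CPM in replicate 2. Values without replicates 1 and 2 of E14 and without this E3 library are given beside many of the member results they touch. The gene lists, FPKM means and correlations are given with all libraries.

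The members lie on 4 chromosomes (mm10): Wt1 on chromosome 2 from 105126529 to 105173614 (plus strand), Lrrn4 on chromosome 2 from 132868516 to 132880862 (minus strand), Upk3b on chromosome 5 from 136038496 to 136044993 (plus strand), Bnc1 on chromosome 7 from 81966662 to 81992299 (minus strand) and Msln on chromosome 17 from 25748613 to 25754327 (minus strand). None overlapped another gene of the tables. Of the 5 members, Upk3b, Bnc1 and Lrrn4 matched an entry of the promoter sequences used here and Wt1 and Msln did not. The 250 bases before the start of those 3 genes, which were all higher in G4 at 48 and 74 h, are shown. They are RefSeq sequences of GRCm38, the assembly that mm10 names, at chr5:136038246-136038495 (plus strand) for Upk3b, chr7:81992300-81992549 (minus strand) for Bnc1 and chr2:132880863-132881112 (minus strand) for Lrrn4. Capitals mark the nuclear receptor motif AGGTCA and the TEAD motif GGAATG or their reverse complements.
Upk3b: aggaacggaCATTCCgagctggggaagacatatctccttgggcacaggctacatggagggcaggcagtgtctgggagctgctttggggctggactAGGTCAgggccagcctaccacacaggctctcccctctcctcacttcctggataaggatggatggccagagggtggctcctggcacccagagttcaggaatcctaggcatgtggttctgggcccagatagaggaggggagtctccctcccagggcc
Bnc1: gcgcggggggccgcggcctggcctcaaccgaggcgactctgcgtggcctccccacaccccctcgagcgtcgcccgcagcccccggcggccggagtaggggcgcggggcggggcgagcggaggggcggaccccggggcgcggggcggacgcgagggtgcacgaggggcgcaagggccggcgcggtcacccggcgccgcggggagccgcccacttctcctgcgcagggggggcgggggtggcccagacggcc
Lrrn4: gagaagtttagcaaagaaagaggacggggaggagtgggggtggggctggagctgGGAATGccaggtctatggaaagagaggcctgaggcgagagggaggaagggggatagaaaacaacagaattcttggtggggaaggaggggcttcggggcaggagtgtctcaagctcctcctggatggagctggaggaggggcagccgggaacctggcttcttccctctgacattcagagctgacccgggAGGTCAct

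The Bnc1 stretch is 83.6% G and C with 39 CpG dinucleotides, GC-richer than 99.7% of the 32851 promoters of this length. The Upk3b and Lrrn4 stretches are 60.8% and 59.2% G and C, with 2 and 5 CpG, where the median promoter had 52.4% and 6 CpG. The nuclear receptor motif AGGTCA, searched on both strands, was found in the Upk3b and Lrrn4 stretches and in 14.02% of all promoters. The TEAD motif GGAATG was found in the same 2 stretches and in 12.6% of all promoters. The GATA motif AGATAA and the core GCGTGGG of EGR and WT1 zinc fingers were in none of the 3 stretches, and in 9.99% and 4.30% of all promoters. The motifs share no bases with each other in these stretches.

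In E14 cells, Wt1 and Bnc1 rose by 72 h of RA and Msln fell, while Upk3b and Lrrn4 did not pass the test. At 72 h against 0 h, 3 of the 5 members passed edgeR's quasi-likelihood test at a Benjamini-Hochberg adjusted p under 0.05, 2 higher and 1 lower, against 59.9% of all 15061 genes tested. Wt1 had 37.4, 35.7, 38.0 and 70.4 CPM at 72 h, against 7.18 and 7.23 CPM at 0 h. All 4 late libraries were above both early ones, and replicate 4 was far above the other late libraries. The change was 2.64 ± 0.51 on the log2 scale (approximate SE; edgeR adjusted p = 1.48e-04). At 48 h Wt1 had 6.96, 12.2, 16.7 and 17.4 CPM, below all 72 h libraries. It was not called at 6, 24 or 48 h (0.61 ± 0.48, 1.16 ± 0.52 and 0.88 ± 0.51, edgeR adjusted p = 0.659, 0.103 and 0.149). With replicates 3 and 4 of every time alone, a choice made after the values were seen, Wt1 was higher at each of these times. The changes were then 1.11 ± 0.22, 1.57 ± 0.24 and 1.25 ± 0.27 (edgeR adjusted p = 0.00107, 1.35e-05 and 3.07e-04). In the fit of all replicates, the Wt1 step of 72 h against 48 h was 1.76 ± 0.42 (edgeR adjusted p = 0.0111). Wt1 was the 1 member called in that comparison, where 12.4% of genes were called. Other settings called more members. Upk3b (1.45, edgeR adjusted p = 0.0604) passed with the authors' size factors, a replicate block, limma, DESeq2's Wald test or replicates 3 and 4 alone (1.30 to 1.77, adjusted p from 4.26e-04 to 0.0426), and without replicate 1 or 2 of 72 h. Bnc1 (1.32, edgeR adjusted p = 0.0727) passed with the authors' size factors (1.57), with replicates 3 and 4 alone (1.43) and without replicate 2 of 72 h (1.60).

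Bnc1 was close to absent at the start. It had 5.25, 2.53, 6.33 and 11.5 CPM at 72 h, against 0.0630 and 0.145 CPM at 0 h from 1 and 3 reads. The groups did not overlap (5.63 ± 0.72, edgeR adjusted p = 2.20e-07). With 0 to 4 reads in each library of 0 to 6 h, Bnc1 passed the filter on low counts only through later libraries, where it is high. Counting error alone puts the ratio of the pooled levels at 55.8, with an exact 95% interval from 20.9 to 210.2. Bnc1 was also the 1 member called at 48 h, where 55.9% of genes were called, with 1.74, 1.85, 2.52 and 3.96 CPM (4.31 ± 0.80, edgeR adjusted p = 6.06e-05). At 24 h it had 1.21, 1.01 and 0 CPM and was again the 1 member called, with 27.7% of genes called, at an edgeR adjusted p of 0.04999. The 24 h and 0 h libraries overlapped. Leaving out either 0 h library, or replicate 1 or 3 of 24 h, ended the call (edgeR adjusted p = 0.118 to 0.221). So did the authors' size factors (2.72, edgeR adjusted p = 0.0539), no filter on low counts (2.66, edgeR adjusted p = 0.0515), limma on the deposited values (1.26, limma adjusted p = 0.269) and replicates 3 and 4 alone (2.20, edgeR adjusted p = 0.149).

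Upk3b was low at 24 h and split at 72 h. It had 2.91, 1.51 and 1.58 CPM at 24 h and 3.94, 2.53, 11.7 and 22.1 CPM at 72 h, against 4.73 and 4.97 CPM at 0 h. The 24 h difference did not pass the test (-1.25 ± 0.62, edgeR adjusted p = 0.137), but did in a fit of the compared groups alone (-1.21, edgeR adjusted p = 0.0173). At 72 h replicates 1 and 2 were below both 0 h libraries and replicates 3 and 4 above them, and the difference did not pass the test (1.01 ± 0.49, edgeR adjusted p = 0.0817). It did without replicate 1 (1.29, edgeR adjusted p = 0.0249) or replicate 2 (1.36, edgeR adjusted p = 0.0100), and with the authors' size factors (1.33, edgeR adjusted p = 0.0321). With replicates 3 and 4 of every time alone, a choice made after the values were seen, Upk3b was lower at 24 h (-1.64 ± 0.42, edgeR adjusted p = 0.00277) and higher at 72 h (1.75 ± 0.24, edgeR adjusted p = 6.51e-07). In that fit all 5 members were called at 72 h, against 64.2% of genes, with Wt1 at 2.88 ± 0.21, Bnc1 at 6.10 ± 0.59, Msln at -2.99 ± 0.54 and Lrrn4 at 0.42 ± 0.13. The replicates that were high in Upk3b were also those low in pluripotency genes at 72 h, as given above; the part of this in the Upk3b values was not tested.

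Msln went the other way. It had 2.62, 1.90, 0.301 and 1.23 CPM at 72 h, against 5.48 and 5.79 CPM at 0 h, with all late libraries below the early ones (-1.89 ± 0.56, edgeR adjusted p = 0.00517). The 72 h levels rest on 18 reads over the 4 libraries. Replicate 1 was the highest of its time at 2, 4, 6, 24, 48 and 72 h, with 10.0 CPM at 2 h and 9.89 CPM at 6 h. At 24 and 48 h the differences from 0 h did not pass the test (-1.05 ± 0.52 and -0.71 ± 0.49, edgeR adjusted p = 0.140 and 0.223). A fit of the compared groups alone called that of 24 h (-1.01, edgeR adjusted p = 0.0399). With replicates 3 and 4 alone, Msln was lower at both times (-1.41 ± 0.38 and -1.41 ± 0.41, edgeR adjusted p = 0.00392 and 0.00450).

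Lrrn4 had 114, 118, 104 and 131 CPM at 72 h and 103, 128, 131 and 135 CPM at 48 h, against 97.4 and 78.2 CPM at 0 h. Both late groups were above the 0 h libraries, by 0.41 ± 0.22 at 72 h (edgeR adjusted p = 0.111) and 0.50 ± 0.22 at 48 h (edgeR adjusted p = 0.0558), and neither passed the test. The 48 h difference lay close to the threshold: it passed in 7 of 9 other settings, at 0.53 to 0.66 with adjusted p from 2.49e-04 to 0.0456, and without replicate 1 of 48 h. Before that it was lower, with 56.3, 36.8, 56.5 and 51.6 CPM at 6 h (-0.80 ± 0.21, edgeR adjusted p = 0.0302). It was the 1 member called at 6 h, where 3.88% of genes were called, and the call was lost without replicate 3 or replicate 4 at 0 h, and without replicate 2 or replicate 4 at 6 h. The call held in 9 of 9 other settings, among them replicates 3 and 4 alone (-0.68 ± 0.13, edgeR adjusted p = 7.30e-04). With these replicates alone Lrrn4 was also lower at 24 h (-0.34 ± 0.14, edgeR adjusted p = 0.0466). With all replicates it was not called at 24 h (-0.41 ± 0.23, edgeR adjusted p = 0.192). At 72 h the authors' own size factors raised the median of all genes by 0.29 and Lrrn4 to 0.70 (edgeR adjusted p = 0.00919).

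**Figure D1:**
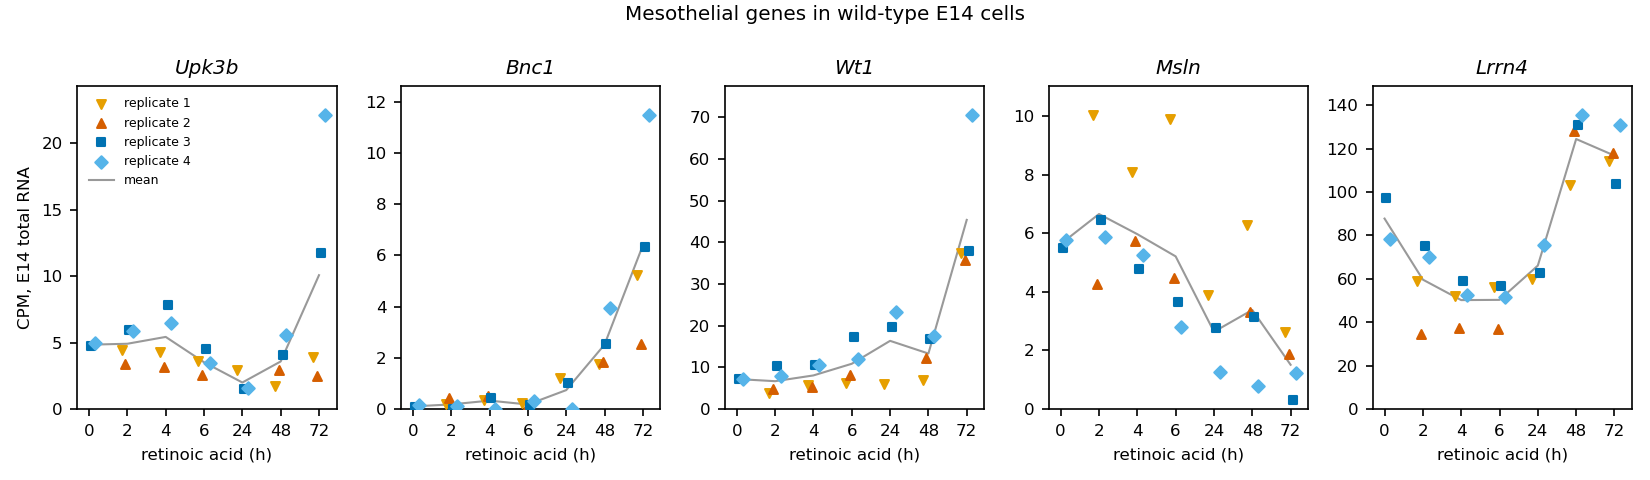
Levels of the 5 genes in E14 total RNA (CPM, linear axis from 0) by hours of retinoic acid, drawn at even steps, with 1 marker per library and a grey line through the means. Upk3b at 72 h reads 3.94, 2.53, 11.7 and 22.1 CPM in replicates 1 to 4, while Wt1 and Bnc1 are above 0 h in every library at that time.

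Levels of different genes are compared per length, from the authors' FPKM. At 72 h the order was Lrrn4 at 22.9 ± 3.22 FPKM (SD, n = 4), Wt1 at 10.1 ± 4.28, Upk3b at 3.49 ± 3.21, Bnc1 at 0.960 ± 0.602 and Msln at 0.482 ± 0.325 FPKM. At 72 h the range of each overlapped that of the next in this order, except for Lrrn4 and Wt1. At 0 h Lrrn4 led with 14.1 ± 2.27 FPKM (n = 2), then Msln at 1.48 ± 0.0459, Upk3b at 1.32 ± 0.0369 and Wt1 at 1.30 ± 0.00308, with Bnc1 last at 0.0124 ± 0.00680 FPKM. Upk3b and Wt1 did not differ beyond their spread at 0 h.

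In wild-type clone G4, Wt1, Bnc1, Upk3b and Lrrn4 rose and Msln fell. All 5 members were called at 48 h and again at 74 h, 4 higher and 1 lower each time, where 49.5% and 56.3% of the 15896 genes tested were called. At 24 h 3 members were called, 2 higher and 1 lower, against 29.7% of genes. These are nuclear libraries whose reads cover whole genes, introns included, so their levels cannot be set beside the exonic levels of E14.

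Wt1 in G4 rose within hours. It had 89.6 and 109 CPM at 6 h, 87.0 and 132 CPM at 24 h, 60.4 and 65.9 CPM at 48 h and 91.6 and 96.4 CPM at 74 h, against 34.4 and 39.5 CPM at 0 h. No later library overlapped the 0 h libraries. The change was 1.42 ± 0.19 at 6 h (edgeR adjusted p = 3.96e-06), in a comparison added after the values were seen, with 4.91% of genes called. At 24, 48 and 74 h it was 1.57 ± 0.19, 0.77 ± 0.19 and 1.35 ± 0.19. The same early rise was seen in both deletion clones: at 6 h Wt1 had 127 and 119 CPM in E3 against 46.4 and 38.9 CPM at 0 h, and 39.6 and 40.0 CPM in H12 against 12.4 and 12.2 CPM at 0 h (1.53 ± 0.19 and 1.69 ± 0.21; edgeR adjusted p = 1.02e-06 and 1.17e-06). Wt1 was the 1 member called at 6 h in each clone, where 5.24% of genes were called in E3 and 5.74% in H12.

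Wt1os, the RNA transcribed from the opposite strand, starts 18 bases from Wt1 and was higher at 6 h as well. In G4 it had 24.5 and 29.6 CPM at 6 h, against 11.7 and 9.66 CPM at 0 h (1.34 ± 0.24, edgeR adjusted p = 3.91e-04). By 74 h it had 13.8 CPM in both G4 libraries (0.37 ± 0.25, edgeR adjusted p = 0.206), when Wt1 was still high. The kit keeps the strand, but the files do not say that counting used it, so reads of the pair near their shared start cannot be assigned with certainty.

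Bnc1 in G4 had no read in either 0 h library, which allows up to 0.191 CPM over the group. It had 0.576 and 1.09 CPM at 24 h, 1.73 and 1.18 CPM at 48 h and 10.1 and 9.21 CPM at 74 h. Against the limit of 3 reads over the 0 h group, that is at least 4.30-fold higher at 24 h, 7.89-fold at 48 h and 50.6-fold at 74 h. The test called each of these times (edgeR adjusted p = 0.00141, 1.93e-05 and 1.11e-10). With 0 to 2 reads in each clone library of 0 to 6 h, Bnc1 passed the filter on low counts only through later libraries, where it is high. A rise was thus built into its being tested, and this holds for its calls in E3 and H12 as well.

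Upk3b in G4 had 2.69 and 1.77 CPM at 48 h, against 0.385 and 1.02 CPM at 0 h, and no library overlapped (1.68 ± 0.59, edgeR adjusted p = 0.0174). That call rests on 40 reads at 48 h and was lost without replicate 1 of 0 h or replicate 1 of 48 h. At 74 h it had 28.2 and 19.3 CPM (5.05 ± 0.46, edgeR adjusted p = 7.84e-11), so nearly all of the rise fell between 48 and 74 h.

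Msln in G4 had 1.58 and 0.936 CPM at 24 h, 0.768 and 0.589 CPM at 48 h and 0.560 and 0.288 CPM at 74 h, against 4.10 and 3.94 CPM at 0 h. Over both libraries Msln had only 17, 12 and 7 reads at these times, against 63 reads at 0 h. It was lower in each library of each of these times, at -1.65 ± 0.46, -2.51 ± 0.48 and -3.15 ± 0.53 on the log2 scale (edgeR adjusted p = 0.00618, 6.55e-05 and 8.36e-06). Without replicate 2 at 24 h the first of these calls was lost (edgeR adjusted p = 0.0928).

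Lrrn4 in G4 had 85.2 and 78.4 CPM at 48 h and 81.9 and 52.8 CPM at 74 h, against 47.2 and 25.4 CPM at 0 h. The groups did not overlap at either time (1.17 ± 0.30 and 0.90 ± 0.30, edgeR adjusted p = 0.00199 and 0.0134), although the lower 74 h library was close to the higher 0 h one. Both calls were lost without replicate 2 at 0 h (0.79 and 0.50), and that of 74 h also without replicate 1 at 74 h (0.57).

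**Figure D2:**
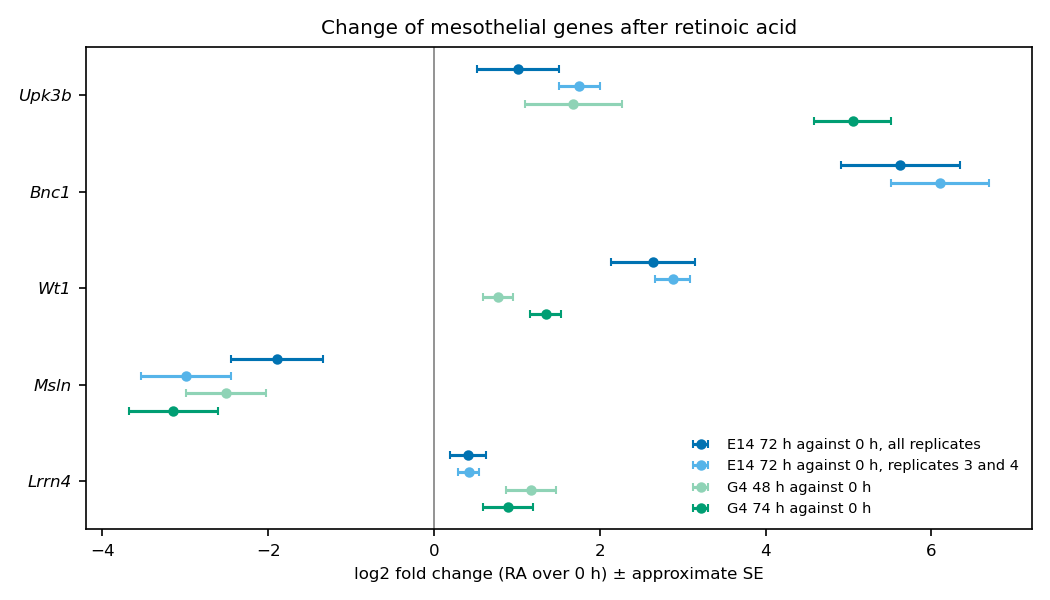
Log2 fold change over 0 h (points) with approximate SE (bars) in E14 at 72 h with all replicates, in E14 at 72 h with replicates 3 and 4 alone, and in wild-type clone G4 at 48 and 74 h. Msln lies left of 0 in all 4 rows, Upk3b reaches 5.05 only in G4 at 74 h, and Bnc1 is not drawn for G4 because it had no read at 0 h.

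At 48 h the deletion clones were compared with each other and with G4, at a time outside the 74 h difference named in the choice. Wt1 was the 1 member called in E3 against H12, where 16.2% of genes were called, and in H12 against G4, where 14.6% were. It had 62.8 and 66.8 CPM in E3 and 33.0 and 34.7 CPM in H12, against 60.4 and 65.9 CPM in G4. H12 was below both other clones with no overlap, by 0.94 ± 0.19 for E3 against H12 (edgeR adjusted p = 9.31e-04) and -0.90 ± 0.19 for H12 against G4 (edgeR adjusted p = 0.00129). E3 and G4 overlapped (0.04 ± 0.18, an interval of 2 SE from -0.32 to 0.40), and no member was called between them, where 2.18% of genes were. Without E3 replicate 1, the library that stood apart, Wt1 was again the 1 member called in E3 against H12 (0.98, edgeR adjusted p = 0.00884), where 2.63% of genes were called. Wt1 in E3 against G4 was then 0.10 (edgeR adjusted p = 0.922), and no member was called, where 1.18% of genes were.

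The H12 deficit of Wt1 was there before RA. At 0 h Wt1 had 12.4 and 12.2 CPM in H12 against 34.4 and 39.5 CPM in G4 (-1.58 ± 0.21, edgeR adjusted p = 2.64e-06), and the E3 libraries, with 46.4 and 38.9 CPM, did not differ from G4 by the test (0.21 ± 0.19, edgeR adjusted p = 0.836). Lrrn4 had 17.8 and 14.9 CPM in H12 against 47.2 and 25.4 CPM in G4 at 0 h (-1.14 ± 0.33, edgeR adjusted p = 0.0202). These were the 2 members called lower in H12 than in G4 at 0 h, where 7.17% of genes were called lower; the comparisons at 0 h were added after the values were seen. The Lrrn4 call was lost without either H12 library or without replicate 1 of G4. From 0 to 48 h Wt1 rose by 1.46 ± 0.21 in H12 and by 0.77 ± 0.19 in G4, and the difference between these responses did not pass the test (0.69 ± 0.28, edgeR adjusted p = 0.192). No member was called for that difference, where 4.27% of genes were, nor for the difference between E3 and G4, where 0.0252% were.

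Other cell types' markers also differed between these libraries. At 0 h the summed level of 7 fibroblast and stroma genes was 11.9 and 9.58 CPM in H12 against 51.3 and 52.4 CPM in G4, with 3 of 6 tested genes lower; Col3a1, Lum and Postn were at 0 reads in 1 H12 library, and Lum and Postn in 1 G4 library. The summed level of 5 simple epithelium genes was 904 and 843 CPM in H12 against 1617 and 1159 CPM in G4, with 3 of 5 genes lower and none at 0 reads. At 48 h 7 of 13 tested endoderm genes were higher in H12 than in G4, with summed levels of 3547 and 3668 CPM in H12 against 1638 and 1771 CPM in G4. Of 8 neural progenitor genes 1 was higher and 4 lower in H12 than in G4 at 48 h, with sums of 217 and 247 CPM in H12 against 402 and 360.2 CPM in G4, and Neurog2 at 0 reads in 1 H12 library. Of 6 tested fibroblast and stroma genes 3 were lower, with sums of 328 and 413 CPM in H12 against 485 and 456 CPM in G4, and none at 0 reads. In E3 against H12 at 48 h all 5 simple epithelium genes were higher, with sums of 933 and 822 CPM in E3 against 457 and 367 CPM in H12. Of the fibroblast and stroma genes 4 of 6 were higher in that comparison, and the E3 sums of 2517 and 572 CPM stood against 328 and 413 CPM in H12. Endoderm genes had 6 of 13 lower and 1 higher in E3 than in H12, with E3 sums of 2082 and 1249 CPM against 3547 and 3668 CPM in H12; Afp was at 0 reads in 1 E3 library and Apoa1 in 1 H12 library. Of 4 tested trophoblast genes 3 were higher in E3 than in H12, with sums of 47.4 and 48.3 CPM in E3 against 15.6 and 20.2 CPM in H12; Elf5 was at 0 reads in both E3 libraries and 1 H12 library, and Hand1 in 1 E3 library. Of 18 other mesothelial genes 16 were tested, and at 0 h 1 was higher and 5 lower in H12 than in G4 (median -0.39). At that time 7.17% of all genes were called lower. At 48 h 1 was higher and 2 lower in H12 than in G4 (median 0.12), where 14.6% of genes were called. In E3 against H12 4 were higher and 1 lower (median 0.11), where 16.2% were called. All list counts of E3 against H12 include E3 replicate 1, the library that stood apart, and were not made without it. The part of these lists in the Wt1 and Lrrn4 differences was not tested. In bulk RNA, fewer cells of a type and less RNA per cell cannot be told apart.

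The other members did not separate the clones at 48 h by the test. Bnc1 had 1.57 and 1.84 CPM in E3 and 1.47 and 1.47 CPM in H12, against 1.73 and 1.18 CPM in G4. The difference of H12 from G4 was -0.02 ± 0.45, an interval of 2 SE from -0.91 to 0.88, so a 2-fold difference lies outside it. Upk3b had 2.04 and 2.53 CPM in E3 and 1.16 and 0.670 CPM in H12, against 2.69 and 1.77 CPM in G4. H12 was the lowest without overlap, and neither difference passed the test (1.29 ± 0.55 for E3 against H12, edgeR adjusted p = 0.107; -1.27 ± 0.54 for H12 against G4, edgeR adjusted p = 0.110). Msln had 3.61 and 1.38 CPM in E3 and 1.37 and 2.55 CPM in H12, against 0.768 and 0.589 CPM in G4; both deletion clones were above G4 without overlap, and neither difference passed the test (1.76 ± 0.52 for E3, edgeR adjusted p = 0.0723; 1.44 ± 0.53 for H12, edgeR adjusted p = 0.0640). Without E3 replicate 2, Msln was called higher in E3 than in G4 (2.36, edgeR adjusted p = 0.0120), and without E3 replicate 1, the library that stood apart, the difference was 0.99 and not called (edgeR adjusted p = 0.604). Lrrn4 had 87.8 and 82.2 CPM in E3 and 88.6 and 87.6 CPM in H12, against 85.2 and 78.4 CPM in G4. Msln in E3 against H12 was 0.32 ± 0.44 with both E3 libraries and -0.46 without E3 replicate 1, so its direction rests on that library. Without it the other differences of E3 from H12 were 1.42 for Upk3b, 0.32 for Bnc1 (0.22 ± 0.45 with both) and -0.10 for Lrrn4 (-0.05 ± 0.29 with both), none of them called.

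Against their own 0 h libraries, all 5 members were called in E3 at 48 h, 4 higher and 1 lower, where 52.0% of genes were called, and 3 of 5 members were called in H12, all higher, where 53.2% were. In E3 the calls were Wt1 (0.61 ± 0.19), Upk3b (1.36 ± 0.58, edgeR adjusted p = 0.0474), Lrrn4 (1.40 ± 0.31), Msln (-1.01 ± 0.40, edgeR adjusted p = 0.0335) and Bnc1, at least 8.43-fold higher over a 0 h group without reads. Without replicate 1 of 48 h, the library that stood apart, Upk3b was no longer called (1.53, edgeR adjusted p = 0.0621) and the other 4 were. Without that library Msln was at -1.77, where 40.7% of genes were called. Upk3b was also lost without replicate 2 of 0 h or of 48 h, Wt1 without replicate 2 of 0 h (0.52), and Msln without either 0 h library or replicate 2 of 48 h (-0.40, edgeR adjusted p = 0.475). A fit of the compared groups alone lost all 3 of these calls (edgeR adjusted p = 0.0764 for Upk3b, 0.0680 for Wt1 and 0.113 for Msln). Upk3b was lost without a filter on low counts as well (edgeR adjusted p = 0.0530), and Msln with limma (adjusted p = 0.0600) and with DESeq2's Wald test (adjusted p = 0.0666). In H12 they were Wt1, Lrrn4 (2.42 ± 0.33) and Bnc1, whose pooled level was 20.6 times that of a single read at 0 h, with an exact 95% interval from 3.37 to 844.

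**Figure D3:**
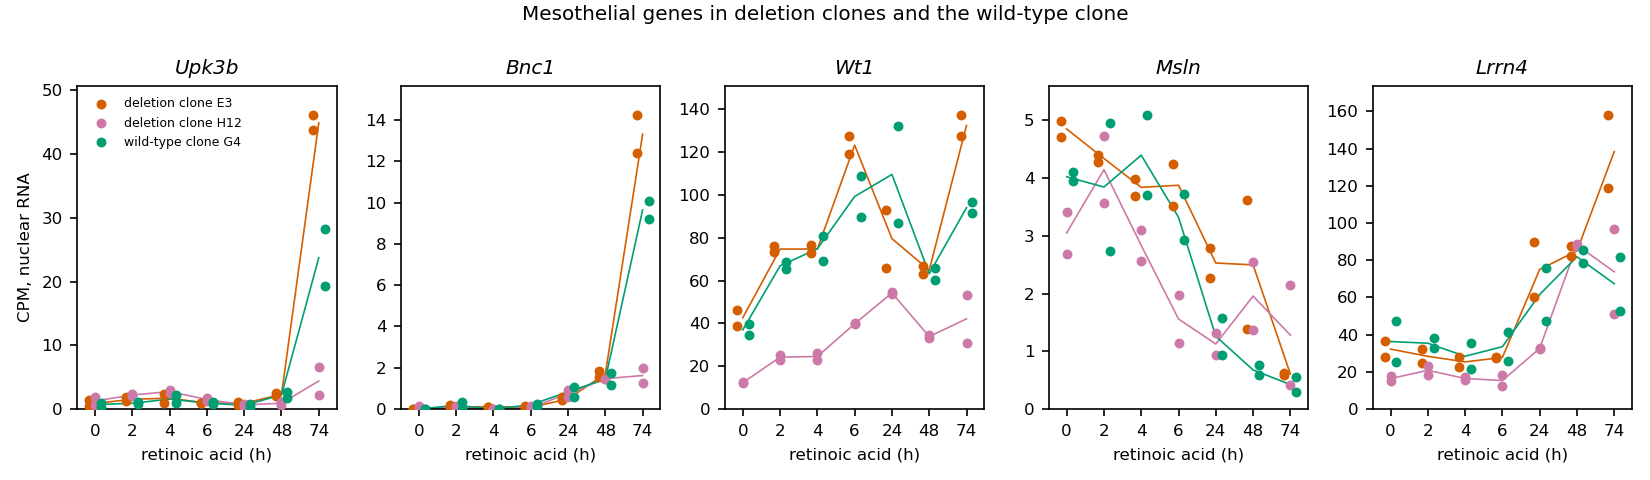
Levels of the 5 genes in nuclear RNA of deletion clones E3 and H12 and wild-type clone G4 (CPM, linear axis from 0) by hours of retinoic acid, drawn at even steps, with 1 point per library and lines through the means. Wt1 in H12 lies below both other clones at every time up to 48 h, and Upk3b and Bnc1 part between the clones at 74 h.

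The 74 h values that led to the choice of these genes were as follows. Upk3b had 43.7 and 46.1 CPM in E3 and 6.57 and 2.24 CPM in H12, against 28.2 and 19.3 CPM in G4. Bnc1 had 12.4 and 14.2 CPM in E3 and 1.99 and 1.26 CPM in H12, against 10.1 and 9.21 CPM in G4. For both genes E3 was highest and H12 lowest, with no overlap among the 3 clones. The log2 difference of E3 against H12 was 3.36 for Upk3b and 3.03 for Bnc1, that of E3 against G4 was 0.91 and 0.47, and that of H12 against G4 was -2.45 and -2.57.

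Bnc1 in H12 was nearly flat from 48 to 74 h, with 1.47 and 1.47 CPM and then 1.99 and 1.26 CPM. Wt1 had the same order at 74 h, with 137 and 128 CPM in E3 and 53.3 and 30.9 CPM in H12, against 91.6 and 96.4 CPM in G4. Lrrn4 had 119 and 158 CPM in E3 and 96.6 and 50.9 CPM in H12, against 81.9 and 52.8 CPM in G4, so H12 and G4 overlapped. Msln was low in all, with 0.620 and 0.592 CPM in E3 and 2.14 and 0.421 CPM in H12, against 0.560 and 0.288 CPM in G4. Without H12 replicate 1, the difference of H12 from G4 was -3.37 for Upk3b, -2.89 for Bnc1 and -1.58 for Wt1, and without H12 replicate 2 it was -1.82, -2.23 and -0.78.

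Markers of other cell types also differed between the clones at 74 h, endoderm genes the most by their median in H12 against G4. The summed level of 14 endoderm genes, such as Sox17, Gata6 and Cubn, was 15992 and 17352 CPM in H12, against 2003 and 2631 CPM in G4, and E3 had 2084 and 2625 CPM. All 13 genes tested in the clones were higher in H12 than in G4 (median 2.33, where the median of all genes was -0.01); Apoa1 was at 0 reads in 1 H12 library and none was at 0 in G4. Fibroblast and stroma genes summed to 681 and 655 CPM in E3 and 1201 and 1075 CPM in H12, against 371 and 207 CPM in G4. Against G4, 5 of 6 tested genes were higher in E3 (median 1.16) and 6 of 6 in H12 (median 1.38), so both deletion clones were above G4, and the median of E3 against H12 was -0.27; Lum was at 0 reads in 1 E3 and 1 G4 library. For 8 neural progenitor genes the sums were 377 and 385 CPM in E3 and 355 and 564 CPM in H12, against 518 and 542 CPM in G4, with 7 of 8 lower in E3 (median -0.88) and 6 of 8 in H12 (median -1.37), and none at 0 reads. The median of E3 against H12 was 0.21. Of 18 other mesothelial genes 16 were tested at 74 h, and by sign 7 were higher and 9 lower in H12 than in G4 (median -0.14). In E3 12 were higher and 4 lower than in G4 (median 0.54), and 11 were higher and 5 lower than in H12 (median 0.30).

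Pluripotency genes summed to 66.5 and 115 CPM in E3 and 158 and 132 CPM in H12, against 92.9 and 101 CPM in G4 at 74 h. In H12 6 of 7 were above G4 (median 1.83), in E3 also 6 of 7 (median 0.66), and the median of E3 against H12 was -1.10; none was at 0 reads. All 3 tested cardiac muscle genes were higher than in G4 both in H12 (median 1.79) and in E3 (median 0.33). Their sums were 11.3 and 16.7 CPM in H12 and 5.27 and 6.87 CPM in E3, against 5.48 and 2.88 CPM in G4, with Tnnt2 at 0 reads in 1 G4 library. All 5 genes of two-cell-like cells were higher than in G4 as well, in H12 (median 1.51) and in E3 (median 0.73). Their sums were 107 and 58.5 CPM in H12 and 54.7 and 63.2 CPM in E3, against 44.3 and 27.6 CPM in G4, with Tcstv3 at 0 reads in 1 G4 library. All 5 simple epithelium genes were higher in E3 than in G4 (median 1.22). In H12 3 were higher and 2 lower than in G4 (median 1.16). These counts are by sign, without a test. The part of these lists in the Upk3b and Bnc1 values was not tested.

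**Figure D4:**
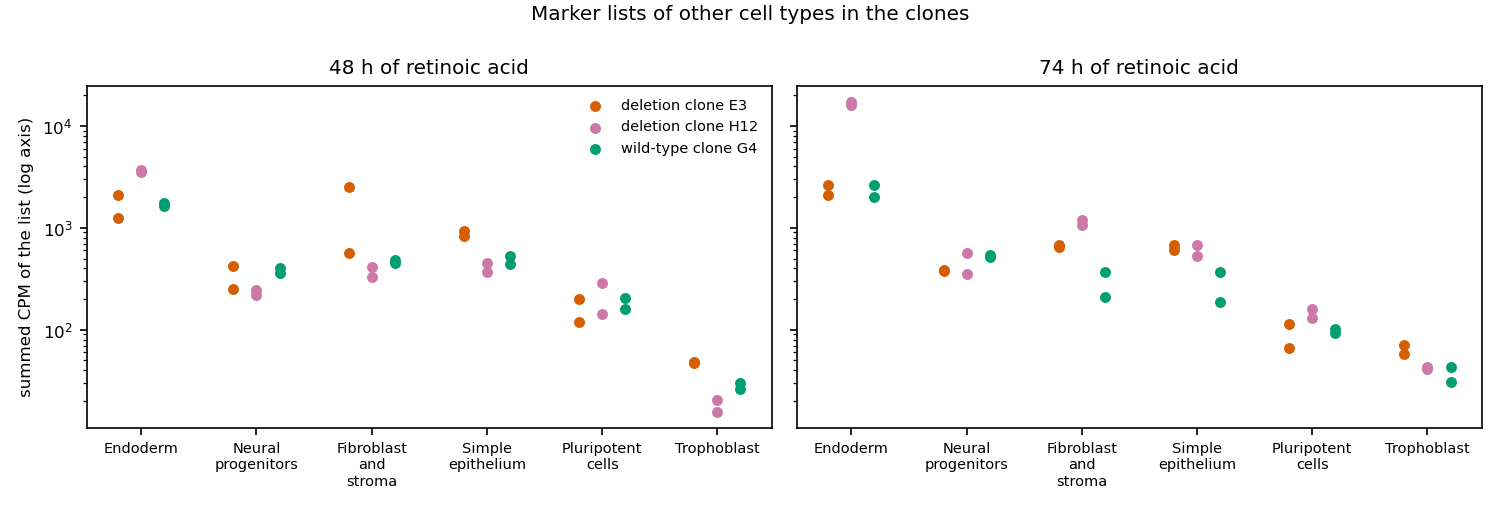
Summed CPM (log axis) of marker lists of other cell types in each library of deletion clones E3 and H12 and wild-type clone G4 at 48 h (left) and 74 h (right). At 74 h the 2 H12 libraries reach 15992 and 17352 CPM for endoderm genes, against 2003 to 2631 CPM in E3 and G4.

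In SCC1-mAID cells, which saw RA for 4 h, Wt1 was the member that passed the test. It had 11.5, 18.4 and 21.5 CPM with RA, against 7.82, 8.37 and 9.33 CPM without treatment, with no overlap (1.01 ± 0.24, edgeR adjusted p = 0.0255). It was the 1 of 4 tested members called, where 2.53% of the 14015 genes tested were. The call was lost without replicate 2 or 3 of the RA libraries or any 1 untreated library, with adjusted p from 0.0737 to 0.196. It was also lost with the authors' size factors (1.23, edgeR adjusted p = 0.705), which raise the median of all genes by 0.18, and with limma on the deposited values (1.13, limma adjusted p = 0.9999). Auxin before RA gave 9.97, 12.4 and 14 CPM, which overlapped RA alone (-0.51 ± 0.23, edgeR adjusted p = 0.773). Auxin alone gave 6.37, 9.07 and 10.3 CPM, around the untreated values (0.06 ± 0.25, an interval of 2 SE from -0.45 to 0.56). No member was called for auxin alone, where 0.278% of genes were, or for auxin with RA against RA alone, where 0.392% were. The difference in the response of Wt1 to RA with and without auxin was -0.57 ± 0.34 (edgeR adjusted p = 0.701).

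Bnc1 did not pass the filter on low counts in SCC1-mAID cells, with 0 to 5 reads per library and none in 6 of 12. Upk3b ranged from 1.26 to 5.39 CPM over the 12 libraries, Msln from 2.51 to 8.38 CPM and Lrrn4 from 24.4 to 48.3 CPM. Lrrn4 had 39.7, 24.4 and 37.9 CPM with RA, against 48.3, 40.0 and 41.9 CPM without treatment, all lower and not called (-0.34 ± 0.18, edgeR adjusted p = 0.515).

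Lists of genes of related cell types put these changes in context. For them as for the members, RA against 0 h was used. The E14 lists use all replicates, which split at 72 h as given above. Of 18 other mesothelial genes, 14 were tested in E14 at 72 h: 3 were higher and 4 lower, and the list's median was -0.35, where that of all genes was -0.01. The share of all genes called was 59.9% in E14 at 72 h and 56.3% in G4 at 74 h, and the counts of this and the next lists are read against these shares. Igfbp5, an insulin-like growth factor binding protein gene, averaged 341 ± 205 CPM at 72 h against 2.44 ± 0.237 CPM at 0 h (SD, n = 4 and 2; 7.11 ± 0.88, edgeR adjusted p = 1.39e-06). Aldh1a2 averaged 24.5 ± 19.9 CPM against 1.80 ± 0.300 CPM (3.74 ± 0.61, edgeR adjusted p = 1.97e-05), and the complement gene C3 rose by 1.66 ± 0.69. The surface peptidase gene Dpp4 (-1.91 ± 0.35), the calretinin gene Calb2 (-1.83 ± 0.48) and Nkain4 (-1.39 ± 0.34) were lower. In G4 at 74 h 4 of 16 were higher and 4 lower, again with Igfbp5 and Aldh1a2 (6.98 ± 0.34 and 3.53 ± 0.36) among those that rose and Dpp4 (-3.31 ± 0.28) and Calb2 (-2.19 ± 0.55) among those that fell. The name mesothelial thus stands for the known use of these genes as markers: Msln fell and the other marker genes went both ways, so no mesothelial cells are identified here.

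Among those with enough reads to test, transcription factors and signals of the epicardium and coelomic epithelium mostly rose. In E14 at 72 h 7 of the 9 tested, of 14, were higher and 1 lower, with a median of 4.85. Genes without reads at 0 h, such as Hand2 and Osr1, passed the filter only through libraries with RA. Their rise was thus built into the counts and medians of this list, which are descriptions. Hand2, a helix-loop-helix factor of heart and limb, averaged 33.2 ± 15.3 CPM at 72 h and had no read at 0 h, at least 394-fold higher, and the zinc finger gene Osr1 averaged 11.8 ± 9.20 CPM, at least 135-fold higher. The nuclear receptor gene Nr2f2 rose by 6.85 ± 0.63 and the basonuclin paralogue Bnc2 fell (-1.53 ± 0.17). In G4 at 74 h 8 of 12 were higher and 2 lower, with Bnc2 at -2.0 ± 0.20. Bnc1 and Bnc2 thus moved in opposite directions in both sets. Gata4 and Gata6 are also in the endoderm list.

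Genes of WT1-expressing kidney cells split. In E14 at 72 h 6 of 10 were higher, among them Lhx1 (5.17 ± 0.65) and Six2 (3.11 ± 0.65), and 1 was lower. That 1 was the podocyte slit protein gene Nphs1, with 1.79 ± 1.22 CPM at 72 h against 132 ± 11.1 CPM at 0 h (-6.15 ± 0.46, edgeR adjusted p = 9.28e-10). In G4 at 74 h 3 of 8 tested were higher and 2 lower, with Nphs1 at 0.368 ± 0.113 CPM against 218 ± 29.4 CPM (-9.11 ± 0.48). Wt1 and Nphs1 went in opposite directions in both sets.

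No other tested uroplakin was called higher, either in G4, where Upk3b rose, or in E14, where Upk3b did not pass the test with all replicates. In E14 at 72 h all 3 tested of 5, Upk2 (-3.61 ± 0.61), Upk3bl (-1.85 ± 0.56) and Upk1a (-1.62 ± 0.24), were lower, and in G4 at 74 h 2 of 4 were lower and none higher. Upk3bl lies 12273 bases from Upk3b and shares its family, and in G4 it fell to 0.296 ± 0.215 CPM at 74 h, against 1.09 ± 0.277 CPM at 0 h (-1.74 ± 0.70, edgeR adjusted p = 0.0337), while Upk3b rose. Simple epithelium genes had 2 of 5 higher, Krt18 (2.27 ± 0.88) and Krt7 (2.09 ± 0.70), and 2 lower, Epcam (-2.29 ± 0.17) and Cdh1 (-2.26 ± 0.22), in E14, and likewise 2 higher and 2 lower in G4. Of 7 stratified epithelium genes, which could hold Bnc1 as well, 2 were tested in E14 and 1, Krt17, was lower (-3.85 ± 0.64); in G4 2 of 3 tested were lower.

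**Figure D5:**
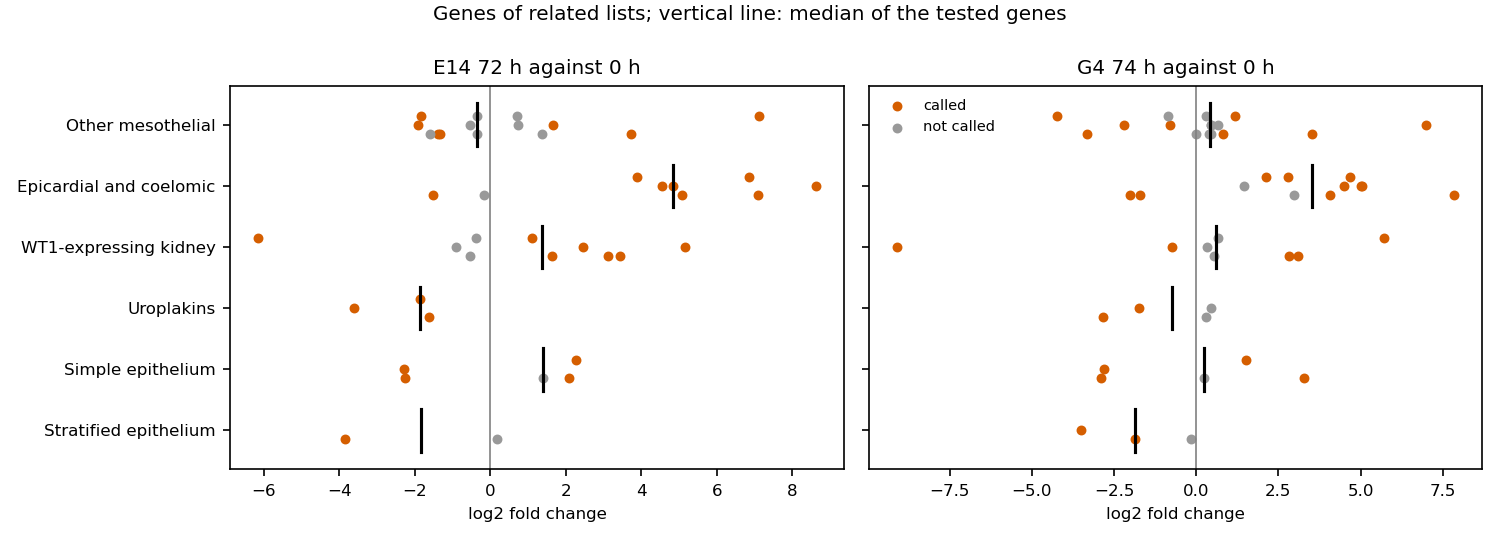
Log2 fold change of each tested gene in 6 lists, in E14 at 72 h (left) and wild-type clone G4 at 74 h (right) against 0 h; orange genes were called, grey ones were not, genes without reads in 1 group are drawn at their bound, and black lines are list medians. The median of the epicardial and coelomic list is 4.85 in E14 and 3.51 in G4, and that of the other mesothelial genes is -0.35 and 0.42.

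Some genes next to the members also changed. Upk3b lies between Upk3bl and Dtx2, which rose by 0.52 ± 0.14 in G4 at 74 h (edgeR adjusted p = 0.00217). Them7, on the other side of Wt1 from Wt1os, rose by 1.33 ± 0.29 in G4 at 74 h (edgeR adjusted p = 2.83e-04), as much as Wt1. The nearest tested neighbour of Bnc1, Hdgfl3, rose by 1.94 ± 0.23 in G4 at 74 h and by 2.16 ± 0.21 in E14 at 72 h, less than Bnc1. Beside Msln, Narfl fell by 0.71 in E14 and by 0.72 in G4. Beside Lrrn4, Fermt1 fell by 1.31 in G4 at 74 h (edgeR adjusted p = 0.00226), and Crls1 did not pass the test in either set (0.06 ± 0.21 in E14, edgeR adjusted p = 0.817). The median change of the 43 tested genes that start within 1 Mb of Upk3b was -0.15 in G4 at 74 h, and that of the 21 around Bnc1 was 0.42. For H12 against G4 at 74 h these medians were 0.01 and 0.08.

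Over the 42 clone libraries the genes whose log2 CPM went most closely with each member differed from member to member. For Bnc1 they were Dlk1 (Pearson's r = 0.94), Nkd1 (0.94) and Dcc (0.94), whose r over the 25 E14 libraries was 0.92, 0.86 and 0.79. Dlk1 encodes a Notch-like membrane protein and averaged 259.6 CPM in E3 and 74.1 CPM in H12, against 141 CPM in G4, at 74 h. For Upk3b they were Cxcl15 (0.90), Sst (0.86) and the ligand gene Wnt2b (0.85), the last with 0.32 over E14 libraries. For Wt1 they were Wt1os (0.87), Rhoq (0.86) and Mbp (0.81), for Msln Tgm1 (0.89), Hr (0.89) and Ckmt1 (0.88), and for Lrrn4 Cd24a (0.95), Dcbld2 (0.93) and Pxdn (0.93). Among the members, Bnc1 went with Lrrn4 (r = 0.80 in the clones, 0.68 in E14) and Upk3b (0.74 and 0.31), and Msln ran against Bnc1 (-0.79 and -0.65). These are descriptions over libraries that share clones and times. The 42 clone libraries include those of E3 and H12 at 74 h, where Upk3b and Bnc1 led to the choice. Their correlation in the clones was thus partly built in. Dlk1 was found from the same libraries, so its 74 h levels are no separate result.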

How the data were processed

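Per the labels' protocols, RNA was depleted of ribosomal RNA, made into strand-specific libraries and sequenced as read pairs; Drosophila SG4 cells served as a spike-in. The tools named in the submitters' processing notes are SAMtools, STAR, DESeq2 and Bowtie2, with the builds mm10 and dm6; versions, roles and the counting strand are not given in the sources used here. The deposited signal is the authors' read count per RefSeq transcript divided by a size factor per library, and E14 also has the authors' FPKM. Dividing by the step of 1 read gave whole reads (within 0.1) for at least 99.9966% of values. Transcripts of equal span had equal signal in 3746 of 3746 sets in the clones and 3747 of 3747 in SCC1-mAID, but in 663 of 3747 in E14, so the nuclear tables cover whole spans and E14 exons.

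One transcript per gene was kept. The recovered reads were tested with edgeR 4.0.16 (R 4.3.3, statmod 1.5.0; quasi-likelihood, robust, TMM, filterByExpr with minimum count 10), with adjustment over all tested genes and a threshold of 0.05, in 1 fit per table. The count test is used in place of a test on the log scale because whole reads were recovered. SE is the log2 fold change over the root of F. Intervals and the limit of 3 reads cover counting error only. Alternatives used DESeq2 1.42.0, limma 3.58.1 on log2(deposited value + 1), other scalings, no filter, a replicate block and leaving out libraries. Most-alike genes are the 3 of highest Pearson's r of log2 CPM (prior count 2). The members and lists were chosen with earlier results of these data known; from each list up to 3 genes that rose and 3 that fell are named. Same-numbered SCC1-mAID libraries with RA and without treatment deviated together (correlations 0.19, 0.27 and 0.26), and the block changed no member's call there. In the clones such correlations ran from -0.33 in E3 against H12 at 48 h to 0.37 in E3 against G4 at 0 h. The main fits use no pairing, and these values do not settle whether the numbers pair libraries. No 2 libraries of a group agreed within sampling noise (chi-square per gene at least 2.42). One gene of the kidney list is not reported by name here.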

Additional observations from a re-analysis of the deposited data

Results flagged for a closer look

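Wt1 in E14 cells at 72 h had 1 library far from the others: replicate 4 had 70.42 CPM, against 35.69, 37.38 and 37.96 CPM in the other replicates. The gap was 0.9347 of the range of the group. Of 25 groups of 4 libraries looked at, chance would give such a flag in about 1 in 20.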

How the results depend on the processing

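The counts of called genes over all genes moved by more than 1.5 times in some settings. With limma on the deposited values, the count was 326 in E14 at 6 h, 4530 at 72 h against 48 h, 229 in E3 against G4 at 48 h, and 74, 3 and 5 in SCC1-mAID for RA, for auxin and for auxin with RA. With the authors' size factors it was 3899 in E14 at 72 h against 48 h, and 72, 3 and 4 in SCC1-mAID in the same order. In fits of the compared groups alone it was 1149 in E14 at 72 h against 48 h, 5135 in E3 at 48 h, 628 in E3 against H12 and 6 in E3 against G4 at 48 h, and 763 and 5 for RA and for auxin. Without a filter, auxin gave 149 and auxin with RA 88, and with DESeq2's Wald test 186 and 96. With replicates 3 and 4 alone, E14 gave 1622 at 6 h and 3300 at 72 h against 48 h. With a replicate block the count was 524 in E3 against G4 and 108 for auxin; these numbers are not shown to pair the libraries, and E14 replicate numbers are not either. Under that block Wt1 was called in E14 at 6, 24 and 48 h, Msln at 24 and 48 h, Lrrn4 at 48 and 72 h, and Upk3b at 72 h (1.32, edgeR adjusted p = 0.00155) and at 72 h against 48 h (1.38). In G4 at 24 h Lrrn4 was called under the block (0.77), and same-numbered libraries of G4 at 24 and 0 h had a correlation of 0.26. Correlations of E3 and H12 libraries at 48 h were -0.33, and pairing crossed numbers gave 3084 calls.

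Leaving out 1 library gave counts from 149 to 551 in E14 at 6 h, 1924 to 3936 at 24 h and 770 to 2499 at 72 h against 48 h. The range was 3048 to 3649 in G4 at 24 h. At 48 h it was 428 to 4895 in E3 against H12, 48 to 721 in E3 against G4 and 539 to 1982 in H12 against G4. In SCC1-mAID it was 212 to 250 for RA, 4 to 68 for auxin and 8 to 63 for auxin with RA. The cause of these moves was not tested.

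Some uncalled differences changed sign. Upk3b in E14 at 6 h was 0.022 under the block. Lrrn4 in E14 at 72 h against 48 h was 0.13 with the authors' size factors and 0.14 with limma. Bnc1 in H12 against G4 at 48 h was 0.0048 with DESeq2's size factors, 0.046 with limma and 0.016 with DESeq2's test, and -0.21 to 0.32 when 1 library was left out. Wt1 with auxin was -0.064 with the authors' size factors, -0.0067 under the block and -0.15 with limma, and -0.064 to 0.19 without 1 library. Msln with auxin and RA was -0.063 with the authors' size factors and -0.18 with limma, and -0.27 to 0.49 without 1 library. Without 1 library, Msln in E14 at 6 h was -0.57 to 0.13, Upk3b was -1.13 to 0.62 in G4 at 24 h, -0.99 to 0.51 in H12 at 48 h and -0.20 to 0.39 in E3 against G4. Msln was -0.46 to 0.91 in E3 against H12, Wt1 -0.020 to 0.12 in E3 against G4, and Lrrn4 -0.22 to 0.12 with auxin and RA. No called member of the planned comparisons changed sign. Bnc1 in SCC1-mAID and in E14 before 24 h rests on 0 to 5 reads per library, which limits any comparison there. Late Msln levels also rest on few reads, 18 over the group in E14 at 72 h and 7 in G4 at 74 h.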
